A study of Mus musculus with 18 samples.

Results

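The genes described here are 46 genes of cell proliferation and DNA replication, measured by RNA sequencing of the mouse descending aorta. They comprise 24 genes of mitosis, 20 genes of S phase and 2 D-type cyclins, and they are listed by known function. No measured value enters the list, but it was drawn up with earlier results of these data known. The deposited table lists 54281 genes, of which 15210 had at least 10 counts in at least 6 of the 18 aortas and were tested. All 46 genes were among those tested. For 41 of them the WT mice alone met that minimum, whereas Bub1, Plk1, Birc5, Ndc80 and Ccne1 met it only together with the HGPS mice, in which they were higher, so their being tested depended on that difference.

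The study asked which genes differ in the arteries of mice that model Hutchinson-Gilford Progeria Syndrome (HGPS), a premature aging disease, and compared them with young and with old wild-type (WT) mice. HGPS mice carry the LmnaG609G mutation on both copies of the endogenous gene, so every cell that uses Lmna makes progerin, a truncated lamin A. All mice were males of the C57BL/6 background, and each of the 3 groups held 6 mice: HGPS mice of 64 to 75 d, WT mice of the same age class (2-mo WT, 62 to 95 d) and old WT mice (24-mo WT, 609 to 762 d). By the methods of the study, WT mice were purchased and aged to 24 mo, whereas the LmnaG609G line came from another laboratory. The methods do not say whether the 2-mo WT mice were purchased or bred with that line. Genotype and source of the mice therefore cannot be told apart from what is given. Each aorta, from the end of the arch to the diaphragm, was sequenced whole, with its intima, media and adventitia, so the values do not say which wall cells made a transcript.

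A cell that leaves rest first raises D-type cyclins, which with their kinases inactivate the retinoblastoma proteins and free the E2F transcription factors. E2F then drives the cyclin E genes and the genes that license and copy DNA during S phase. The mitotic genes follow later in the cycle. In resting cells the DREAM complex holds them silent, in part through a short promoter element called the cell cycle genes homology region (CHR). In dividing cells B-MYB and FOXM1 turn them on together with the CCAAT-binding factor NF-Y. Smooth muscle cells of a healthy adult artery divide rarely, so in this tissue the mitotic genes are read as marks of a small fraction of cells.

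RefSeq promoter windows of 300 bases, from 250 before to 50 after a gene start on GRCm38.p6, were matched by symbol to 36 of the 46 genes, giving 39 windows because some genes have more than 1 start. Aurkb, Ccna2, Ccnd1, Ccnd2, Ccne2, Foxm1, Gins2, Kif20a, Mcm4 and Tpx2 had no window. The CHR letters TTTGAA or TTCGAA, searched on both strands, were in 16 of 20 mitotic windows (80%) and in 3 of 19 S-phase windows (15.8%), against 14% of the 13946 windows of all tested genes. The following mitotic promoters are shown because Cdk1, Ccnb2, Cdc20, Mki67 and Cenpf span the entry into mitosis, its progress and its exit, with the CHR letters in capitals and 30 bases written 5′ to 3′ on the strand of the gene.
Cdk1, chr10:69352910-69352939, minus strand: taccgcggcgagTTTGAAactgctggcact
Ccnb2, chr9:70421533-70421562, minus strand: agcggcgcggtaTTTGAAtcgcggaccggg
Cdc20, chr4:118437344-118437373, minus strand: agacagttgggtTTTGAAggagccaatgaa
Mki67, chr7:135716460-135716489, minus strand: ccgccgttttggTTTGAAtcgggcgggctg
Cenpf, chr1:189688067-189688096, minus strand: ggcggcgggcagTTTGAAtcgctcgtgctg

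Elements bound by E2F were searched as TTCCCGC or as TTGGCGC, and also as TTCGCGC or as TTGCCGC, on both strands, and were placed the other way round. Of the S-phase windows 12 of 19 (63.2%) held a match, against 3 of 20 mitotic windows (15%) and 15.7% of the windows of all tested genes. The letters CCAAT, which can overlap an E2F match written GCGCCAA, were in 17 of 20 mitotic windows (85%), in 13 of 19 S-phase windows (68.4%) and in 37.4% of the windows of all tested genes. CHR and CCAAT letters stood together in 15 mitotic windows (75%), in 3 S-phase windows (15.8%) and in 5.69% of the windows of all tested genes. The S-phase promoters below are shown because their genes differed widely in response in the aorta, Mcm5 and Mcm6 encoding subunits of the same helicase and Cdc6 its loader. Capitals mark the E2F letters, of which GCGGGAA and GCGCCAA are TTCCCGC and TTGGCGC read on the other strand.
Mcm5, chr8:75109349-75109378, plus strand: caagaactttcGCGCCAAaacgtccagcct
Mcm6, chr1:128359733-128359762, minus strand: attggacgggtTTGGCGCgaagtagctcag
Cdc6, chr11:98908002-98908031, plus strand: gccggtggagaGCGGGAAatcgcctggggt
Cdt1, chr8:122568022-122568051, plus strand: gcgcggaatccGCGGGAActacctttttgg
These are matches of letters in the reference sequence, and no binding was measured.

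**Figure D1:**
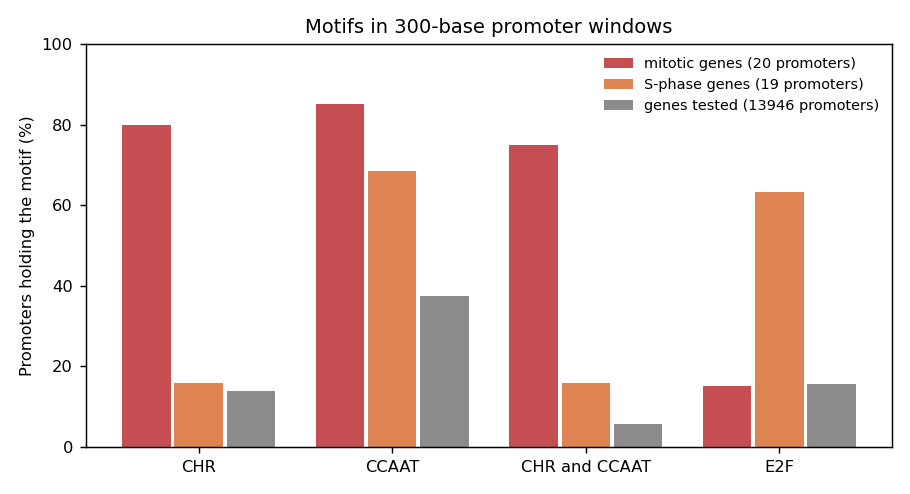
Share of promoter windows (vertical axis, percent, from 0) that held the CHR, the CCAAT, both CHR and CCAAT, or the E2F letters, for the 20 mitotic windows, the 19 S-phase windows and the 13946 windows of tested genes. CHR letters were in 80% of mitotic against 15.8% of S-phase windows, and E2F letters in 15% against 63.2%.

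The libraries held 12413229 to 30844775 counts, with medians of 22752394 in HGPS, 18031579 in 2-mo WT and 17964166 in 24-mo WT. Levels below are counts per 1000000 (CPM) on library sizes scaled by the TMM method, and tests are edgeR's quasi-likelihood tests with Benjamini-Hochberg adjustment over the 15210 genes, all 18 mice being fitted together. Because a piece of wall was sequenced whole, more cells in cycle and more RNA per cycling cell cannot be told apart. All 8 smooth muscle markers were tested, with summed levels of 19700 to 27450 CPM in HGPS, 29520 to 38050 CPM in 2-mo WT and 30520 to 34760 CPM in 24-mo WT, and 5 of the 8 fell in HGPS against 2-mo WT. In that comparison 21.2% of all tested genes were called lower.

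In HGPS aortas the mitotic genes rose as a class. All 24 were higher than in 2-mo WT at an adjusted p under 0.05, whereas 22% of all tested genes were higher and 21.2% lower at this threshold. Their median log2 fold change was 1.38, or 2.60-fold, beside 0.0026 over all tested genes, and single genes ran from 0.79 for Foxm1 to 2.03 for Birc5. At the thresholds of the study, a change of at least 1.5-fold and an adjusted p under 0.001, 15 of the 24 were higher, beside 5.27% of all tested genes higher and 4.23% lower. The study applied these thresholds to DESeq2 and reported more genes than the 801 higher and 644 lower found here by edgeR. In 19 of the 24 the lowest HGPS mouse lay above the highest 2-mo WT mouse, which held for 11% of all tested genes. Birc5 and Ndc80, which met the count minimum only with the HGPS mice, are among these 19 but not among the 15. Among the 20 mitotic genes that met the count minimum in WT mice alone, all 20 were higher, with a median of 1.38.

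The S-phase genes moved less and not together. Of the 20, 15 rose, Pola1 fell, and Cdc6, E2f2, Tyms and Prim1 did not pass the test. Their median log2 fold change was 0.41, or 1.33-fold, with a range from -0.35 for Pola1 to 1.77 for Ccne2, and 6 of the 20 passed the thresholds of the study. The groups did not overlap for 7 of the 20, and Ccne1 is counted among both the 6 and the 7. Without Ccne1, which met the count minimum only with the HGPS mice, 14 of 19 rose and 1 fell, with a median of 0.39. No test was made of the difference between the classes. The labels number the libraries, with 19 to 23 and 48 to 50 for 3 HGPS mice each, 41 to 46 for 2-mo WT and 24 to 34 for 24-mo WT, and do not say what the numbers mark, so a difference tied to them cannot be told apart from the groups. With only the 3 HGPS mice of either run of numbers, 23 (19 to 23) and 19 (48 to 50) mitotic genes and 12 and 10 S-phase genes passed an adjusted p under 0.05, and 11 and 7 of the 46 rather than 21 passed the thresholds of the study. In these fits 19.2% (19 to 23) and 13% (48 to 50) of all tested genes were called higher, rather than 22%.

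**Figure D2:**
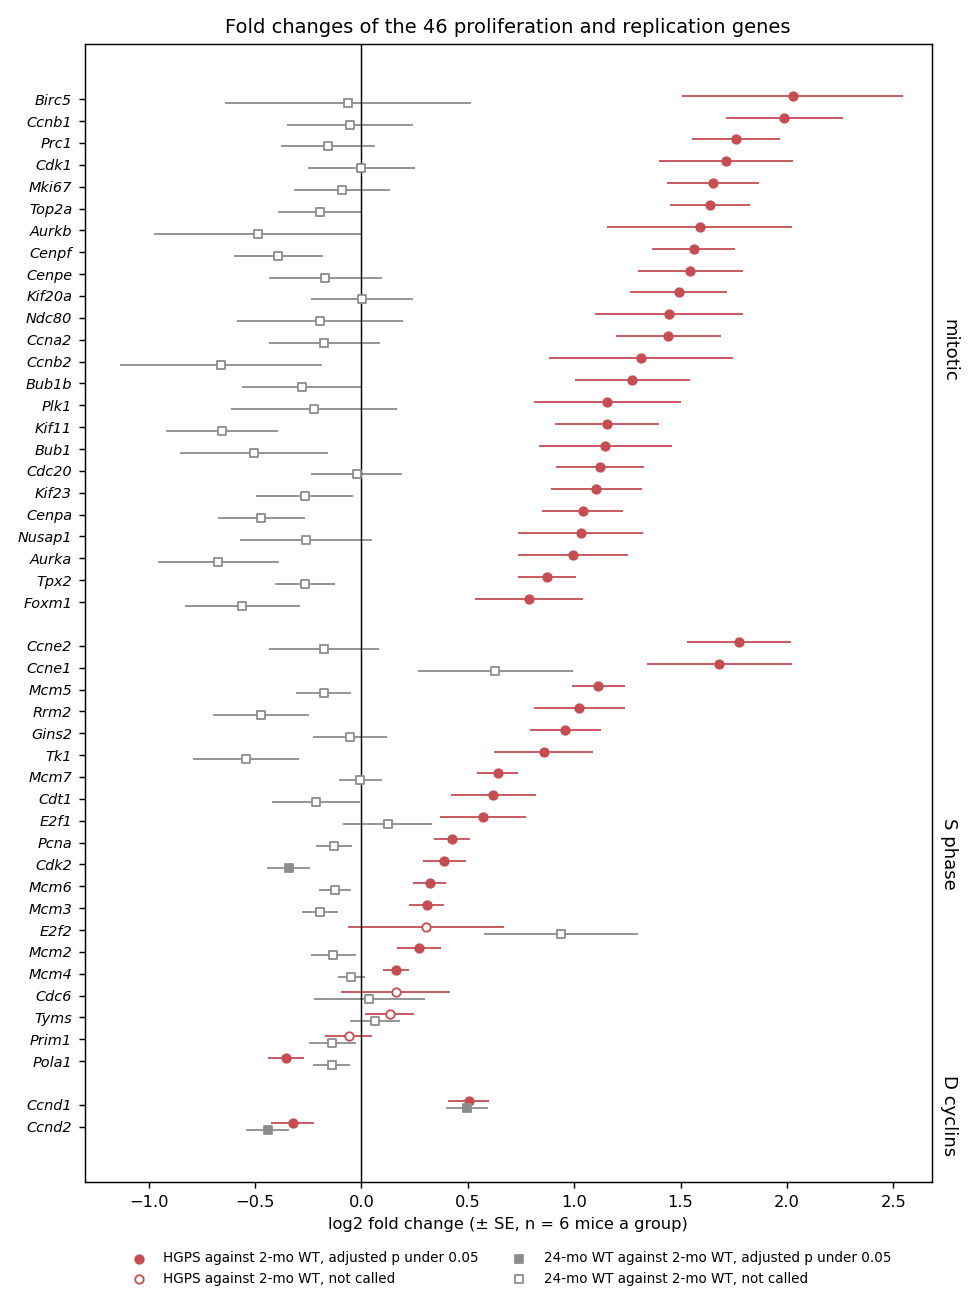
Log2 fold change (horizontal axis, ± SE) of each of the 46 genes for HGPS against 2-mo WT (circles) and 24-mo WT against 2-mo WT (squares), filled where the adjusted p was under 0.05, 6 mice a group. All 24 mitotic circles are filled and lie between 0.79 and 2.03, S-phase circles run from -0.35 to 1.77, and of the squares only Cdk2, Ccnd1 and Ccnd2 are filled.

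Mki67 and Top2a, the customary markers of cycling cells, had the highest CPM of the mitotic genes, not corrected for their length. Mki67, which encodes the Ki-67 antigen that coats mitotic chromosomes, was at 11.1 to 20.03 CPM in the HGPS mice (median 15.8), 3.25 to 5.92 in 2-mo WT (median 5.32) and 2.75 to 7.03 in 24-mo WT (median 4.30). Every HGPS aorta was above every WT aorta of either age, and the difference from 2-mo WT was 3.15-fold (log2 fold change 1.65 ± 0.22 SE, adjusted p = 9.9e-06). Top2a, the topoisomerase that untangles sister chromatids, was at 11.8 to 23.5 CPM in the HGPS mice (median 15.2), 4.06 to 6.36 in 2-mo WT (median 4.90) and 3.31 to 6.67 in 24-mo WT (median 4.25). Again no HGPS value overlapped a WT value, and Top2a rose 3.11-fold (log2 fold change 1.64 ± 0.19 SE, adjusted p = 2.4e-06).

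The kinase that starts mitosis and its cyclins rose, by 2.49-fold for Ccnb2 to 3.96-fold for Ccnb1. Cdk1, the mitotic kinase, was at 2.06 to 3.97 CPM in the HGPS mice (median 3.34), 0.505 to 1.55 in 2-mo WT (median 0.888) and 0.410 to 1.73 in 24-mo WT (median 0.922). All HGPS mice lay above all WT mice, with a rise against 2-mo WT of 3.28-fold (log2 fold change 1.72 ± 0.31 SE, adjusted p = 0.00026). Ccnb1, the B-type cyclin that activates CDK1 at the onset of mitosis, was at 1.97 to 4.63 CPM in the HGPS mice (median 3.45), 0.325 to 1.08 in 2-mo WT (median 0.928) and 0.490 to 1.36 in 24-mo WT (median 0.805). Its groups did not overlap either, and its rise of 3.96-fold (log2 fold change 1.99 ± 0.28 SE, adjusted p = 1.8e-05) was the largest of the mitotic genes after Birc5. Ccna2, the cyclin A that bridges S phase and mitosis, was at 3.93 to 6.68 CPM in the HGPS mice (median 5.45), 0.730 to 2.79 in 2-mo WT (median 2.10) and 1.05 to 2.44 in 24-mo WT (median 1.81), without overlap between HGPS and WT. Ccna2 rose 2.718-fold (log2 fold change 1.44 ± 0.25 SE, adjusted p = 0.00014). Some of its exons overlap those of the more abundant Exosc9 on the opposite strand, and Exosc9 had a log2 fold change of 0.14. Whether the counting used strand is not given in the sources used here, so reads of such pairs may not have been told apart.

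Foxm1, the transcription factor that switches on many of these genes in dividing cells, showed the smallest change of the class. It ranged over 1.42 to 3.47 CPM in HGPS with a median of 1.94, against 0.730 to 1.84 with a median of 1.14 in 2-mo WT and 0.574 to 1.08 with a median of 0.833 in 24-mo WT. The highest 2-mo WT mice overlapped the lowest HGPS mice. The rise of 1.73-fold (log2 fold change 0.79 ± 0.25 SE, adjusted p = 0.017) passed the threshold, but it did not without HGPS mouse 6 (adjusted p = 0.0549 by edgeR) or with only the HGPS mice of library numbers 19 to 23. Over all alternatives its adjusted p by edgeR or DESeq2 lay between 0.00857 and 0.105.

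Genes of the spindle rose together. Kif11, the motor that pushes the spindle poles apart, was at 2.97 to 6.64 CPM in the HGPS mice (median 4.71), 1.54 to 2.86 in 2-mo WT (median 2.12) and 0.815 to 2.08 in 24-mo WT (median 1.44), and rose 2.23-fold (log2 fold change 1.16 ± 0.24 SE, adjusted p = 0.00091). Tpx2, which nucleates spindle microtubules and activates Aurora A, was at 5.46 to 7.79 CPM in the HGPS mice (median 6.97), 2.69 to 4.75 in 2-mo WT (median 3.69) and 2.62 to 3.52 in 24-mo WT (median 3.04). Both sets of HGPS values lay above all those of 2-mo WT, and Tpx2 rose 1.83-fold (log2 fold change 0.87 ± 0.14 SE, adjusted p = 5.8e-05). Aurka, the centrosomal Aurora kinase, was at 1.34 to 2.08 CPM in the HGPS mice (median 1.93), 0.551 to 1.38 in 2-mo WT (median 0.823) and 0.293 to 0.863 in 24-mo WT (median 0.532). Here the lowest HGPS mouse lay below the highest 2-mo WT mouse, and the rise was 1.99-fold (log2 fold change 0.99 ± 0.26 SE, adjusted p = 0.0046).

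Genes of the central spindle and of cytokinesis included some of the largest changes. Prc1, which bundles the antiparallel microtubules between the separating chromosomes, was at 5.88 to 9.16 CPM in the HGPS mice (median 8.26), 1.47 to 3.10 in 2-mo WT (median 2.34) and 1.58 to 3.41 in 24-mo WT (median 1.76). The HGPS mice stood above all WT mice, with a rise of 3.39-fold (log2 fold change 1.76 ± 0.21 SE, adjusted p = 3.4e-06). Kif20a, the kinesin that brings regulators to the midzone, was at 3.05 to 6.12 CPM in the HGPS mice (median 4.45), 1.01 to 2.38 in 2-mo WT (median 1.57) and 1.22 to 2.21 in 24-mo WT (median 1.59), and rose 2.81-fold (log2 fold change 1.49 ± 0.23 SE, adjusted p = 4.4e-05). Kif23, the kinesin of the centralspindlin complex, was at 2.67 to 4.04 CPM in the HGPS mice (median 3.07), 1.05 to 2.02 in 2-mo WT (median 1.37) and 0.815 to 1.86 in 24-mo WT (median 1.10), and rose 2.15-fold (log2 fold change 1.10 ± 0.22 SE, adjusted p = 0.00044). For both kinesins the HGPS and WT values did not overlap. Aurkb, the Aurora kinase of the chromosomal passenger complex, was at 1.04 to 2.30 CPM in the HGPS mice (median 1.77), 0.162 to 0.780 in 2-mo WT (median 0.605) and 0 to 0.789 in 24-mo WT (median 0.425). It was not counted in 1 of the 24-mo WT mice, and the HGPS group did not overlap either WT group. Its rise was 3.01-fold (log2 fold change 1.59 ± 0.43 SE, adjusted p = 0.0061). Exons of Prc1 and Kif20a overlap those of Rccd1 and Cdc23 on the opposite strand, which both fell in HGPS, with log2 fold changes of -0.80 and -0.31.

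The kinetochore and its checkpoint, which hold chromosomes on the spindle until all are attached, were higher as well. Cenpa, the histone H3 variant that marks centromeres, was at 2.63 to 3.76 CPM in the HGPS mice (median 3.39), 1.22 to 2.25 in 2-mo WT (median 1.37) and 0.815 to 1.51 in 24-mo WT (median 1.12), with no overlap. Cenpa rose 2.06-fold (log2 fold change 1.04 ± 0.19 SE, adjusted p = 0.00027). Cenpe, the kinetochore motor that lines chromosomes up, was at 2.30 to 4.63 CPM in the HGPS mice (median 3.11), 0.780 to 1.38 in 2-mo WT (median 1.21) and 0.545 to 1.36 in 24-mo WT (median 0.984), and rose 2.92-fold (log2 fold change 1.54 ± 0.25 SE, adjusted p = 7.2e-05). Cenpf, a large kinetochore protein, was at 3.23 to 6.24 CPM in the HGPS mice (median 4.89), 1.14 to 2.16 in 2-mo WT (median 1.55) and 0.917 to 1.58 in 24-mo WT (median 1.14). Neither of these overlapped between HGPS and WT, and Cenpf rose 2.95-fold (log2 fold change 1.56 ± 0.19 SE, adjusted p = 5.9e-06). Ndc80, the subunit that grips the microtubule end, was scarce at 0.813 to 1.44 CPM in the HGPS mice (median 0.984), 0.162 to 0.568 in 2-mo WT (median 0.382) and 0.0586 to 0.616 in 24-mo WT (median 0.352). These levels stood for 2 to 11 counts in 2-mo WT and 16 to 31 in HGPS, and the rise was 2.724-fold (log2 fold change 1.45 ± 0.35 SE, adjusted p = 0.0025).

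Bub1, a checkpoint kinase, was at 0.938 to 2.09 CPM in the HGPS mice (median 1.32), 0.310 to 1.02 in 2-mo WT (median 0.575) and 0.308 to 0.703 in 24-mo WT (median 0.370), with an overlap between HGPS and 2-mo WT. It rose 2.21-fold (log2 fold change 1.15 ± 0.31 SE, adjusted p = 0.0061). Bub1b, which encodes the checkpoint protein BUBR1, was at 5.67 to 9.21 CPM in the HGPS mice (median 7.47), 0.981 to 4.15 in 2-mo WT (median 3.82) and 1.47 to 3.70 in 24-mo WT (median 2.51). No HGPS mouse was as low as any WT mouse, and Bub1b rose 2.42-fold (log2 fold change 1.27 ± 0.27 SE, adjusted p = 0.00087). Cdc20, the activator of the anaphase-promoting complex that the checkpoint restrains, was at 2.91 to 5.24 CPM in the HGPS mice (median 3.79), 1.19 to 2.43 in 2-mo WT (median 1.88) and 1.25 to 2.40 in 24-mo WT (median 1.92). Its groups did not overlap, and it rose 2.18-fold (log2 fold change 1.12 ± 0.21 SE, adjusted p = 0.00026). Cdc20 shares exon sequence with Elovl1 on the opposite strand, which rose with a log2 fold change of 0.20.

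The remaining mitotic genes were Ccnb2, Plk1, Birc5 and Nusap1, with log2 fold changes from 1.03 for Nusap1 to 2.03 for Birc5. Birc5, which encodes survivin, rested on 26 to 49 counts in HGPS and on 0 to 18 in 2-mo WT, with 0 in 1 mouse of each WT group, and its rise was 4.08-fold (log2 fold change 2.03 ± 0.52 SE, adjusted p = 0.0039). Ccnb2 ranged over 1.42 to 3.57 CPM in HGPS with a median of 1.98, against 0.406 to 1.93 with a median of 0.748 in 2-mo WT and 0.109 to 1.11 with a median of 0.526 in 24-mo WT. The HGPS and 2-mo WT values overlapped, and the rise of 2.49-fold (log2 fold change 1.31 ± 0.43 SE, adjusted p = 0.019) was not called without HGPS mouse 3. Plk1 had a log2 fold change of 1.16 on 1 to 8 counts a library in 2-mo WT. These values of Ccnb2, Plk1 and Birc5 are named after they were seen.

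**Figure D3:**
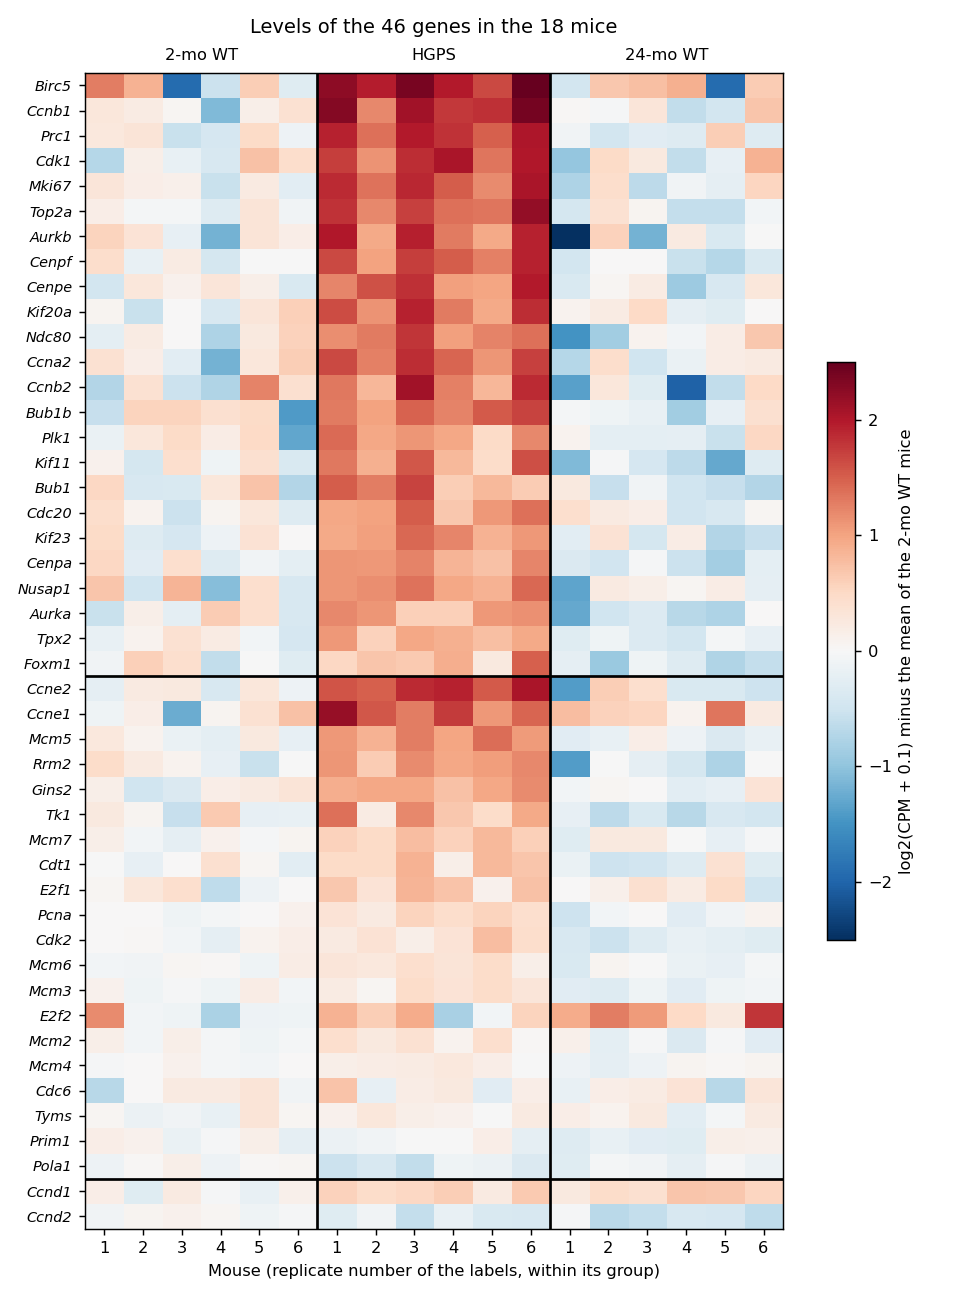
Level of each of the 46 genes (rows) in each of the 18 mice (columns), as log2(CPM + 0.1) minus the mean of the 6 2-mo WT mice, red higher and blue lower. The mitotic block is red in all 6 HGPS mice, the S-phase block is red mainly in its upper rows, and the 24-mo WT columns are pale, with 7 of the 46 estimates against 2-mo WT above 0.

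The cyclins E had the largest estimates among S-phase genes, of which that of Ccne1 rests on a gene tested only because the HGPS mice were high. They activate CDK2, which fires replication origins. Ccne2 was at 6.30 to 9.26 CPM in the HGPS mice (median 7.42), 1.62 to 2.67 in 2-mo WT (median 2.25) and 0.762 to 3.37 in 24-mo WT (median 1.63). All HGPS mice were above all WT mice, and Ccne2 rose 3.42-fold (log2 fold change 1.77 ± 0.25 SE, adjusted p = 1.7e-05). Ccne1 was at 0.752 to 1.74 CPM in the HGPS mice (median 1.05), 0.0699 to 0.568 in 2-mo WT (median 0.340) and 0.327 to 0.917 in 24-mo WT (median 0.494). HGPS did not overlap 2-mo WT but did overlap 24-mo WT, and Ccne1 rose 3.21-fold (log2 fold change 1.68 ± 0.34 SE, adjusted p = 0.00061) from 1 to 11 counts in 2-mo WT to 18 to 40 in HGPS. Ccne2 overlaps Ints8 on the opposite strand, which had a log2 fold change of 0.00.

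The kinase and the transcription factors of S-phase entry had smaller estimates than these cyclins. Cdk2 was at 12.2 to 19.1 CPM in the HGPS mice (median 14.2), 9.49 to 12.4 in 2-mo WT (median 11.3) and 7.60 to 9.70 in 24-mo WT (median 8.89). HGPS and 2-mo WT overlapped by a single pair of mice, and Cdk2 rose 1.31-fold (log2 fold change 0.39 ± 0.10 SE, adjusted p = 0.0038). E2f1, the activating E2F factor, was at 1.84 to 3.11 CPM in the HGPS mice (median 2.80), 1.05 to 2.31 in 2-mo WT (median 1.72) and 1.17 to 2.40 in 24-mo WT (median 1.91). Its groups overlapped, and the rise of 1.49-fold (log2 fold change 0.57 ± 0.20 SE, adjusted p = 0.028) was lost when any 1 of 5 mice was left out: HGPS 3, 4 or 6, or 2-mo WT 4 or 5.

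Of the genes that load the MCM helicase onto origins, Cdt1 was called and Cdc6 was not, and the difference between them was not tested. Cdc6, the loading ATPase, was at 0.710 to 1.51 CPM in the HGPS mice (median 1.01), 0.505 to 1.12 in 2-mo WT (median 0.968) and 0.509 to 1.15 in 24-mo WT (median 1.01). The groups overlapped, with a log2 fold change of 0.16 ± 0.26 (SE; adjusted p = 0.65). Cdt1, which brings MCM to the origin, had a log2 fold change of 0.62 (adjusted p = 0.017), a call lost with libraries thinned to the smallest and with only the HGPS mice of library numbers 48 to 50.

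The 6 subunits of the MCM helicase form a single ring, yet their transcripts moved by different amounts. Mcm5 was at 9.91 to 14.3 CPM in the HGPS mice (median 11.4), 4.54 to 6.52 in 2-mo WT (median 5.28) and 4.18 to 6.04 in 24-mo WT (median 4.74), without overlap. Mcm5 rose 2.17-fold (log2 fold change 1.11 ± 0.12 SE, adjusted p = 1.7e-06), the largest of the family. Mcm7 was at 16.7 to 21.0 CPM in the HGPS mice (median 18.01), 10.1 to 13.2 in 2-mo WT (median 12.2) and 9.61 to 14.2 in 24-mo WT (median 11.7), also without overlap between HGPS and WT. Mcm7 rose 1.56-fold (log2 fold change 0.64 ± 0.10 SE, adjusted p = 5.1e-05). Its exons overlap those of Ap4m1 and Cops6 on the opposite strand, with log2 fold changes of -0.04 and 0.13. Mcm2 was at 8.76 to 11.49 CPM in the HGPS mice (median 10.7), 7.86 to 9.50 in 2-mo WT (median 8.20) and 6.65 to 9.38 in 24-mo WT (median 7.74), with HGPS overlapping both WT groups. The rise of Mcm2 was 1.21-fold (log2 fold change 0.27 ± 0.10 SE, adjusted p = 0.038), and it was lost when any 1 of 8 mice was left out: HGPS 1, 2, 3 or 5, or 2-mo WT 2, 4, 5 or 6. Mcm3, Mcm4 and Mcm6 rose with log2 fold changes of 0.31, 0.16 and 0.32, and the call of Mcm4 was lost on leaving out any 1 of 10 mice, namely HGPS 1 to 5 or 2-mo WT 1, 2, 4, 5 or 6.

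At the replication fork, Pcna, the sliding clamp of the polymerases, was at 56.1 to 71.3 CPM in the HGPS mice (median 65.1), 45.1 to 52.2 in 2-mo WT (median 48.6) and 33.9 to 51.2 in 24-mo WT (median 45.9). HGPS and WT did not overlap, and Pcna rose 1.34-fold (log2 fold change 0.43 ± 0.08 SE, adjusted p = 0.0005). Gins2, a subunit of the active helicase, was at 2.94 to 4.03 CPM in the HGPS mice (median 3.47), 1.19 to 2.17 in 2-mo WT (median 1.94) and 1.42 to 2.22 in 24-mo WT (median 1.68), again without overlap. Gins2 rose 1.94-fold (log2 fold change 0.96 ± 0.17 SE, adjusted p = 0.00017). Most of its exon sequence, 2758 of 4097 bases, overlaps Gse1 on the opposite strand, which had a log2 fold change of 0.02. Over all mice Gse1 had 1935 counts and Gins2 835. Pola1, the catalytic subunit of the polymerase that starts new strands, was the only S-phase gene lower in HGPS, with a log2 fold change of -0.35 ± 0.08 (SE; adjusted p = 0.0025). Its partner Prim1, the primase, had a log2 fold change of -0.06 ± 0.11 (SE; adjusted p = 0.7).

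Of the 3 genes that supply nucleotides, Rrm2 and Tk1 rose and Tyms did not pass the test. Rrm2, the S-phase subunit of ribonucleotide reductase, was at 3.44 to 5.13 CPM in the HGPS mice (median 4.68), 1.44 to 3.03 in 2-mo WT (median 2.24) and 0.762 to 2.16 in 24-mo WT (median 1.71). No HGPS value overlapped a WT value, and Rrm2 rose 2.03-fold (log2 fold change 1.02 ± 0.21 SE, adjusted p = 0.0008). Tk1, thymidine kinase, was at 1.51 to 3.53 CPM in the HGPS mice (median 2.37), 0.838 to 2.11 in 2-mo WT (median 1.25) and 0.763 to 1.11 in 24-mo WT (median 0.946). HGPS and 2-mo WT overlapped, and Tk1 rose 1.81-fold (log2 fold change 0.86 ± 0.23 SE, adjusted p = 0.0063). Tyms, thymidylate synthase, had a log2 fold change of 0.13 ± 0.12 (SE; adjusted p = 0.37), and E2f2, an E2F factor, had a log2 fold change of 0.30 ± 0.36 (SE; adjusted p = 0.53).

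**Figure D4:**
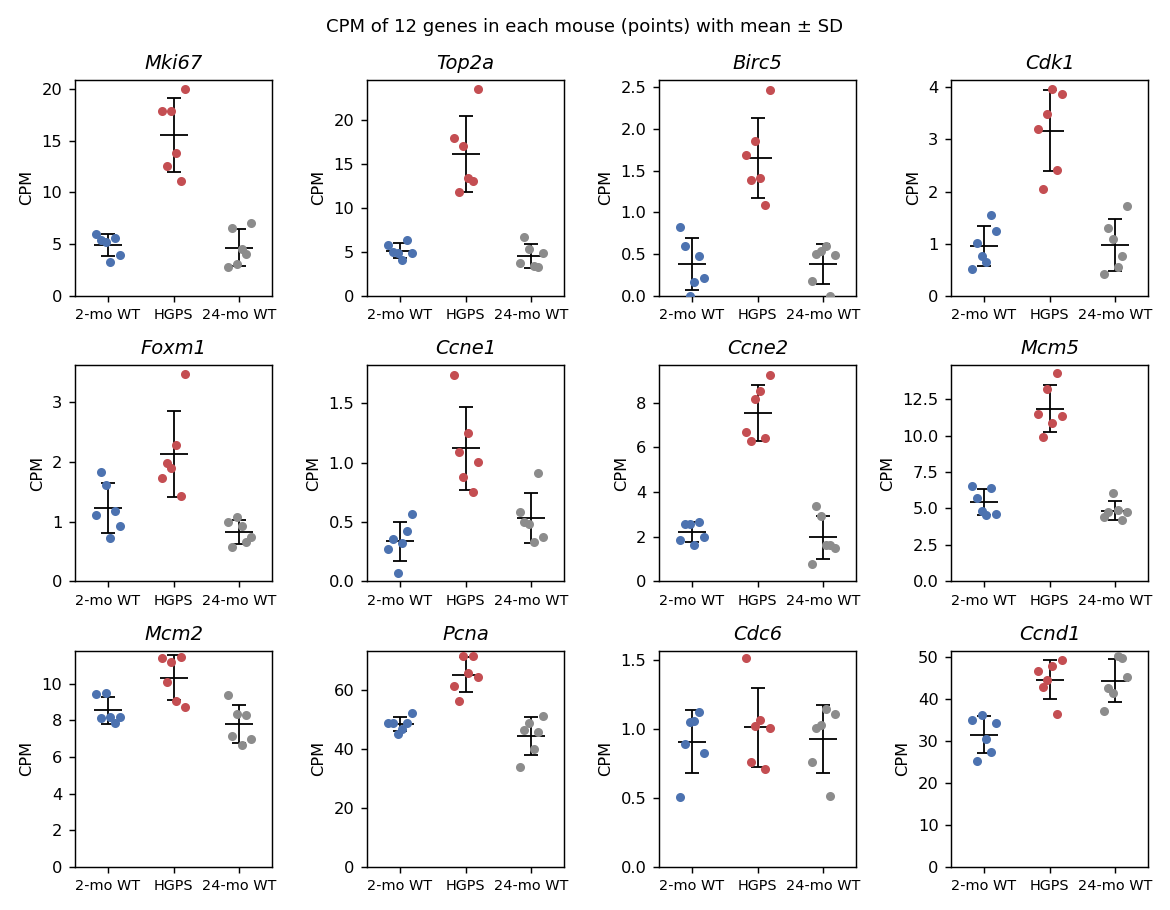
CPM (vertical axes, from 0) of 12 genes in each mouse, points being mice and bars mean ± SD of 6, for 2-mo WT, HGPS and 24-mo WT. HGPS points stand clear of both WT groups for Mki67, Top2a, Birc5, Cdk1, Ccne2, Mcm5 and Pcna, stand clear of 2-mo WT but not of 24-mo WT for Ccne1 and Ccnd1, and overlap 2-mo WT for Foxm1, Mcm2 and Cdc6.

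The D-type cyclins, which couple outside signals to the cycle, were called in both comparisons with the young mice. Ccnd1 was at 36.4 to 49.2 CPM in the HGPS mice (median 45.7), 25.3 to 36.3 in 2-mo WT (median 32.4) and 37.1 to 50.2 in 24-mo WT (median 44). HGPS and 24-mo WT each lay above 2-mo WT without overlap, with rises of 1.42-fold (log2 fold change 0.50 ± 0.10 SE, adjusted p = 0.00044) and of 1.41-fold (log2 fold change 0.50 ± 0.10 SE, adjusted p = 0.0021). Ccnd2 was at 169 to 241 CPM in the HGPS mice (median 201), 238 to 275 in 2-mo WT (median 257) and 159 to 252 in 24-mo WT (median 181). It fell in both, to 0.800-fold (log2 fold change -0.32 ± 0.10 SE, adjusted p = 0.014) and to 0.737-fold (log2 fold change -0.44 ± 0.10 SE, adjusted p = 0.0062). Both comparisons use the same 2-mo WT mice, and for Ccnd2 the highest mice of both groups reached into the range of 2-mo WT. Between HGPS and 24-mo WT directly, Ccnd1 differed by a log2 fold change of 0.01 ± 0.10 and Ccnd2 by 0.12 ± 0.10, neither passing the test, although Ccnd2 was called without 24-mo WT mouse 1.

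Summed over the 24 mitotic genes, the level was 87.9 to 138.6 CPM in HGPS (median 107.9), 33.3 to 49.4 CPM in 2-mo WT (median 42.1) and 29.0 to 42.7 CPM in 24-mo WT (median 33.5). The mean of HGPS was 2.67 times that of 2-mo WT, with no overlap. Summed over the 20 S-phase genes, it was 312.2 to 366.9 CPM in HGPS (median 332.5), 258.6 to 282.4 CPM in 2-mo WT (median 265.6) and 212.8 to 263.2 CPM in 24-mo WT (median 252.4), a ratio of 1.26 for HGPS to 2-mo WT. These sums carry no test, since the genes were chosen with earlier results of these data known. HGPS mouse 6, with the highest mitotic sum, had an S-phase sum of 320.5 CPM, and HGPS mouse 5, with the lowest mitotic sum, had the highest S-phase sum. The S-phase sum rests on few genes, because Mcm6 alone held 32.4% and Pcna 18.1% of it in 2-mo WT, whereas Top2a, with the highest CPM of the mitotic genes, held 12.5% of the mitotic sum.

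**Figure D5:**
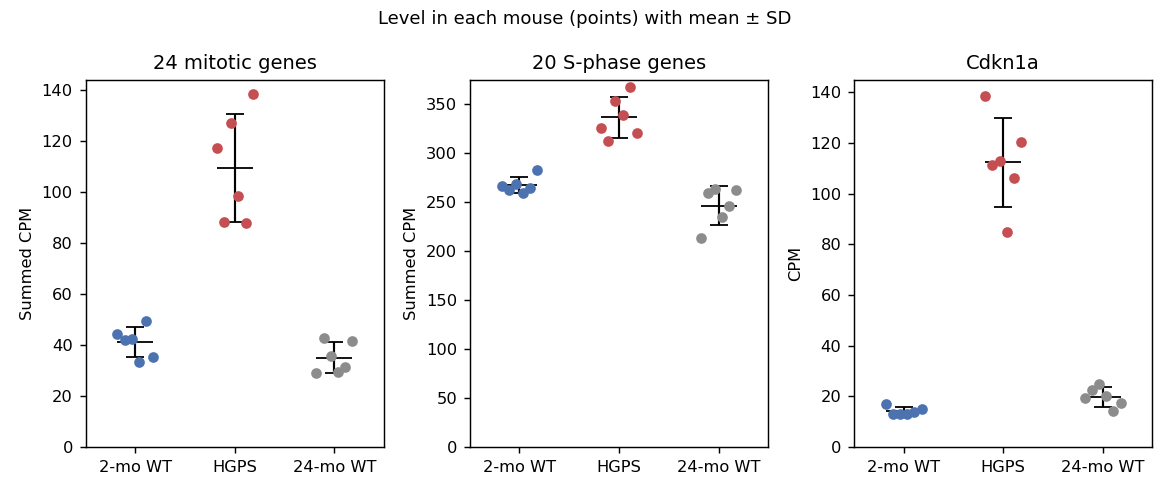
Summed CPM of the 24 mitotic and of the 20 S-phase genes, and CPM of Cdkn1a (vertical axes, from 0), points being mice and bars mean ± SD of 6. HGPS mice stand at 87.9 to 138.6 CPM for the mitotic sum against at most 49.4 CPM in WT, and at 312.2 to 366.9 CPM for the S-phase sum against at most 282.4 CPM.

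Per length, as CPM for each 1000 bases of annotated exon, the S-phase genes spanned a far wider range of levels than the mitotic genes. In 2-mo WT the mean level ran from 0.127 CPM per kb for Ccne1 to 20.1 for Pcna in the S-phase class, with Mcm6 at 18.6, and from 0.0564 for Ndc80 to 0.979 for Cdc20 in the mitotic class. Among the MCM subunits the level per kb was 18.6 for Mcm6, 6.78 for Mcm4, 3.42 for Mcm3, 2.71 for Mcm7, 1.36 for Mcm5 and 1.23 for Mcm2. In HGPS the level of Mcm5 reached 2.97 CPM per kb and that of Mcm6 23.2. Ccnd2 stood above all of these at 27.2 CPM per kb in 2-mo WT, and Ccnd1 at 6.69.

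Between 24-mo and 2-mo WT, 0 of the 24 mitotic genes passed an adjusted p under 0.05 by edgeR, and 0 by DESeq2, while 3 (12.5%) had an unadjusted p under 0.05, beside 25.1% of all tested genes. Over all tested genes 6.29% were higher and 5.38% lower with age. The mitotic estimates had a median of -0.24 and lay between -0.67 for Aurka and 0.00 for Kif20a, with 1 of 24 above 0. Of the S-phase genes 0 were higher and 1 was lower, Cdk2, with a log2 fold change of -0.34 ± 0.10 (SE; adjusted p = 0.033), a call lost on leaving out any 1 of 7 mice: 2-mo WT 1, 2, 5 or 6, or 24-mo WT 1, 2 or 3. The S-phase estimates ran from -0.54 for Tk1 to 0.94 for E2f2, whose adjusted p was 0.1. None of the 46 genes reached the thresholds of the study by edgeR or DESeq2, which 1.28% of all tested genes passed upward and 0.717% downward, while 10 of the 46 (21.7%) had an unadjusted p under 0.05. Without overlap between the ages stood only Ccnd1 among the 46, beside 3.2% of all tested genes higher and 3.08% lower without overlap.

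Against the old mice, the mitotic genes were again higher in HGPS. All 24 mitotic genes were higher, beside 23.8% of all tested genes higher and 23.6% lower. Their median log2 fold change was 1.66, between 1.14 for Tpx2 and Cdc20 and 2.09 for Birc5, and 23 of the 24 did not overlap, Plk1 being the exception, beside 10.9% of all tested genes. Plk1, and Bub1, Birc5 and Ndc80 among the 23, met the count minimum only with the HGPS mice. The 20 mitotic genes that met it in WT mice alone were all higher, with a median of 1.69. Mki67 exceeded its level in the old mice by 3.35-fold (log2 fold change 1.74 ± 0.22 SE, adjusted p = 3.5e-06). Top2a was higher by 3.57-fold (log2 fold change 1.83 ± 0.19 SE, adjusted p = 3.6e-07). Foxm1, which differed least from the young mice, was higher than in the old by 2.54-fold (log2 fold change 1.35 ± 0.26 SE, adjusted p = 0.00031), here without overlap. Aurka showed a log2 fold change of 1.67 ± 0.27 (SE; adjusted p = 6.1e-05).

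Of the S-phase genes, 14 exceeded 24-mo WT levels and Pola1 was lower, with a median of 0.53. Without Ccne1, which met the count minimum only with the HGPS mice, 13 of 19 were higher and 1 lower, with a median of 0.50. Cdk2 was higher by 1.66-fold (log2 fold change 0.73 ± 0.10 SE, adjusted p = 9.8e-06), and its groups did not overlap. Tk1 was higher by 2.64-fold (log2 fold change 1.40 ± 0.24 SE, adjusted p = 0.00011), and Rrm2 by 2.82-fold (log2 fold change 1.496 ± 0.22 SE, adjusted p = 2e-05). The rule of 1.5-fold and adjusted p under 0.001 took 27 of the 46, namely 20 mitotic and 7 S-phase genes, beside 6.02% of all tested genes higher and 6.11% lower. Bub1 and Ndc80, which met the count minimum only with the HGPS mice, are among these 20 mitotic genes. The call of Pola1, with an adjusted p of 0.047 by edgeR, was not made by DESeq2, without a count filter, with only the 2 groups, with thinned libraries or with only the HGPS mice of library numbers 48 to 50, where its log2 fold change was -0.07. Over all alternatives its adjusted p by edgeR or DESeq2 lay between 0.00216 and 0.533. The calls of Ccne1, Mcm2 and Mcm4 were also lost with those 3 HGPS mice. The comparisons of HGPS with young and with old mice share the HGPS mice and are not independent.

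Genes of the same processes outside the 46 were listed as well. For comparison, 22% of all tested genes were called higher and 21.2% lower in HGPS against 2-mo WT. In a list of 36 other mitotic genes, 33 were tested, of which 30 rose in HGPS against 2-mo WT and 1 fell, with a median log2 fold change of 1.39. Of these 33, 12 met the count minimum only with the HGPS mice, Spc25 and Cdca8 among them, and of the other 21, 18 rose and 1 fell, with a median of 1.35. The largest estimates were those of Spc25, a partner of NDC80, at 4.78-fold (log2 fold change 2.26 ± 0.45 SE, adjusted p = 0.00051), of the mitotic kinase gene Nek2 at 3.96-fold (log2 fold change 1.99 ± 0.26 SE, adjusted p = 9.8e-06) and of Cdca8, which encodes borealin, at 3.74-fold (log2 fold change 1.90 ± 0.28 SE, adjusted p = 2.8e-05). Pttg1, which encodes securin, fell with a log2 fold change of -0.34 ± 0.08 (SE; adjusted p = 0.0025). In a list of 34 other replication genes, 32 were tested, 20 rose and 1 fell, with a median of 0.50. Of these 32, 4 met the count minimum only with the HGPS mice, Ung and Asf1b among them, and of the other 28, 16 rose and 1 fell, with a median of 0.35. The largest estimates were those of Ung, an enzyme that removes uracil from DNA, at 3.17-fold (log2 fold change 1.66 ± 0.31 SE, adjusted p = 0.00027), of the histone chaperone gene Asf1b at 2.97-fold (log2 fold change 1.57 ± 0.33 SE, adjusted p = 0.00083) and of Dbf4, the activator of the CDC7 kinase, at 2.71-fold (log2 fold change 1.44 ± 0.23 SE, adjusted p = 6e-05). Dnmt1, the maintenance DNA methyltransferase, fell with a log2 fold change of -0.16 ± 0.06 (SE; adjusted p = 0.045).

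Some inhibitors of the cycle also changed in HGPS. Cdkn1a, which encodes p21, was at 85.0 to 139 CPM in the HGPS mice (median 112), 12.8 to 17.1 in 2-mo WT (median 13.4) and 14.2 to 25.04 in 24-mo WT (median 19.9). All HGPS mice lay above all WT mice, and Cdkn1a rose 7.93-fold (log2 fold change 2.99 ± 0.13 SE, adjusted p = 2.4e-11), a larger estimate than for any of the 46 genes. In 24-mo WT it rose 1.39-fold (log2 fold change 0.48 ± 0.13 SE, adjusted p = 0.019). Of 11 inhibitors tested among 12 listed, 5 rose and 2 fell in HGPS against 2-mo WT, beside 22% of all tested genes higher and 21.2% lower. The other large rises were those of Cdkn2b at 2.06-fold (log2 fold change 1.04 ± 0.16 SE, adjusted p = 3.7e-05) and Cdkn2c at 1.83-fold (log2 fold change 0.87 ± 0.21 SE, adjusted p = 0.0024), inhibitors of the D cyclin kinases. Cdkn1b, which encodes p27, was at 50.2 to 65.8 CPM in the HGPS mice (median 57.2), 67.5 to 91.7 in 2-mo WT (median 79.8) and 57.0 to 67.2 in 24-mo WT (median 62.1). It fell without overlap with 2-mo WT in HGPS, with a log2 fold change of -0.49 ± 0.08 (SE; adjusted p = 7.2e-05), and in 24-mo WT, with a log2 fold change of -0.37 ± 0.08 (SE; adjusted p = 0.0037). Cdkn1c, which encodes p57, was at 9.37 to 14.4 (median 10.9) CPM in HGPS and 10.8 to 15.8 (median 12.6) in 2-mo WT, with a log2 fold change of -0.20 ± 0.11 (SE; adjusted p = 0.14). Cdkn2a, which encodes p16 and p19ARF, had too few counts to be tested, at 0 to 0.112 CPM in HGPS, 0 to 0.107 in 2-mo WT and 0.0510 to 0.287 in 24-mo WT.

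Other cyclins, kinases and factors showed no common direction, and their counts stand beside the 22% of all tested genes that were called higher and the 21.2% called lower. Of 10 tested among 12 listed cyclins and kinases, 4 rose and 2 fell, led by Ccng1, a p53 target, at 2.80-fold (log2 fold change 1.49 ± 0.08 SE, adjusted p = 3.1e-10). Those that fell were Cdc25b, a phosphatase that activates CDK1, at a log2 fold change of -0.65, and Cdk6, a partner of the D cyclins, at -0.48. Ccnf, a cyclin of G2, rose 2.57-fold (log2 fold change 1.36 ± 0.44 SE, adjusted p = 0.017), and Myc, a transcription factor of cell growth, rose 2.08-fold (log2 fold change 1.05 ± 0.25 SE, adjusted p = 0.0019). Of 13 tested among 14 listed E2F and DREAM factors, 3 rose and 2 fell, shares near those of all tested genes. E2f8 and E2f7 met the count minimum only with the HGPS mice. E2f8 rose 3.46-fold (log2 fold change 1.79 ± 0.63 SE, adjusted p = 0.028) and E2f7 rose 2.46-fold (log2 fold change 1.30 ± 0.34 SE, adjusted p = 0.0051), both E2F repressors that are themselves made in S phase, and Lin54, the DREAM subunit that reads the CHR, rose 1.39-fold (log2 fold change 0.48 ± 0.12 SE, adjusted p = 0.0028). Tfdp2, a partner of E2F, and Lin52, another DREAM subunit, fell with log2 fold changes of -0.21 and -0.20. With age, between 24-mo and 2-mo WT, 6.29% of all tested genes were called higher and 5.38% lower. Of these lists, 1 of the 33 other mitotic genes (Anln, higher) and 1 of the 32 other replication genes (Prim2, higher) passed. Of the inhibitors 2 were higher (Cdkn1a and Cdkn2b) and 1 lower (Cdkn1b). In addition, 1 cyclin was higher (Ccng1), 1 kinase lower (Cdk4) and 2 factors higher (E2f6 and Tfdp2).

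Markers of some other cells changed in HGPS against 2-mo WT, and their part in these results was not tested. The counts of markers stand beside 22% of all tested genes called higher and 21.2% called lower in this comparison. All 8 macrophage markers rose, with summed levels of 592.7 to 890.8 CPM in HGPS, 324.8 to 487.9 CPM in 2-mo WT and 301.4 to 590.9 CPM in 24-mo WT. All 8 brown fat markers rose, from 121.3 to 630.7 CPM in 2-mo WT to 487.7 to 1737 CPM in HGPS, and 7 of 8 white fat markers rose, from 247.9 to 1300 CPM to 1099 to 3085 CPM. The brown fat marker Elovl3 met the count minimum only with the HGPS mice, and the other 7 brown fat markers all rose. Of the 8 fibroblast markers 5 fell, from 4344 to 5308 CPM to 2922 to 4609 CPM, and of the 8 endothelial markers 1 rose, with sums of 592.0 to 1419 CPM and 930.0 to 1264 CPM. Of the 8 granulocyte precursor markers 0 could be tested, and they summed to 0.188 to 1.91 CPM in HGPS (median 1.23), 0.0517 to 0.802 CPM in 2-mo WT (median 0.217) and 0.102 to 0.756 CPM in 24-mo WT (median 0.361), low but higher in HGPS by the median. The 8 thymocyte markers, of which 1 was tested and not called, summed to 1.47 to 3.93 CPM in HGPS, 0.413 to 8.02 CPM in 2-mo WT and 0.756 to 5.92 CPM in 24-mo WT. Of the 8 T cell markers 3 were tested and 1 rose, a gene that met the count minimum only with the HGPS mice, at sums of 1.85 to 4.78 CPM in HGPS and 0.826 to 3.96 CPM in 2-mo WT. Of 8 B cell markers and of 8 erythroid precursor markers, 4 each were tested and 0 were called, with 0 at an unadjusted p under 0.05 by edgeR, and sums in HGPS of 1.09 to 4.13 CPM and 14.5 to 92.8 CPM against 1.44 to 5.94 CPM and 10.7 to 116.8 CPM in 2-mo WT.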

How the data were processed

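Descending aortas of 18 mice, 6 each of HGPS, 2-mo WT and 24-mo WT, were sequenced from ribosome-depleted, stranded total RNA. By the methods of the study, the authors estimated transcript abundance with salmon (version not given in the sources used here) on GENCODE M23 transcripts of GRCm38.p6 and summed it to genes with tximport. The deposited table holds these expected counts per gene as whole numbers, and who rounded them is not stated. The submitters' processing notes also name Bowtie 0.12.2 and mm10. Gene symbols were looked up in GENCODE M21, which held 54107 of the 54281 identifiers. Every sample column was mapped by its name to 1 sample.

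The 15210 genes that reached 10 counts in 6 or more mice were fitted with edgeR 4.0.16 in R 4.3.3 (TMM, quasi-likelihood F test, Benjamini-Hochberg over all tested genes). Groups were the 3 of the labels, all in 1 fit without covariates, and 3 comparisons were made. CPM used TMM-scaled library sizes. The alternatives were DESeq2 1.42.0, other normalizations and filters, thinned libraries, a replicate block, fits of 2 groups, subsets of library number and leaving out each mouse. The code was tested on simulated data, and figures were drawn with matplotlib 3.10.9 in Python 3.11.15. No 2 libraries of a group agreed within sampling noise (chi-square per degree of freedom of 7.56 to 83.4 over 45 pairs). The libraries were separate mice, of 12413229 to 30844775 counts, and the depth limits genes such as Plk1 to a few counts. The point mutation of Lmna is not visible in gene counts, so the genotype labels were not checked.

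The genes and lists were chosen with earlier results of these data known. Group ranges are given for genes past 1.5-fold and an adjusted p of 0.001 in any comparison, and for Mki67, Top2a, Ccnb1, Cdk1, Foxm1, E2f1, Cdc6, Mcm2, Mcm5, Pcna, Rrm2, Ccnd1 and Ccnd2. Other members are given by counts and range, and other lists by counts and at most 3 genes a direction, with Cdkn1a, Cdkn1b, Cdkn1c and Cdkn2a. Same-numbered mice were checked for shared deviations: over 18 pairs the correlation was -0.162 to 0.172 (median -0.0131), and the numbers were not taken as pairing.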

Additional observations from a re-analysis of the deposited data

Results flagged for a closer look

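In each of the 3 groups of 6 mice, the highest and lowest mouse of each of the 46 genes was compared with the nearest other mouse, relative to the whole range of the group (Dixon's criterion at the 95% level). The comparison was made on log2 CPM with a small count added, whereas the values printed here are CPM. Chance alone picks about 1 group in 20, and 4 of the 138 groups were picked. Ccnb1 was lowest in 2-mo WT mouse 4, at 0.3245 CPM against 0.8383 in the next mouse. Prc1 was highest in 24-mo WT mouse 5, at 3.414 CPM against 2.051. Nusap1 was lowest in 24-mo WT mouse 1, at 0.5274 CPM against 1.233. E2f2 was highest in 2-mo WT mouse 1, at 2.525 CPM against 1.007, and without this mouse E2f2 was called higher in 24-mo than in 2-mo WT.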

How the results depend on the processing

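With at least 50 counts in 6 mice only 13 mitotic genes stayed in the fit, and all 13 were called in HGPS against 2-mo WT and against 24-mo WT. Of all genes in that fit, 24% and 25.9% were called higher. Kif20a, Kif23, Cenpa and Cenpf reached 50 counts in HGPS mice only. Their staying in the fit depended on that difference, so the 13 calls are no independent check. With the HGPS mice of library numbers 48 to 50 only, 10 S-phase genes were called against 2-mo WT, 7 of the 46 passed the thresholds of the study against 2-mo WT and 15 against 24-mo WT. With those of library numbers 19 to 23 only, 11 passed against 2-mo WT. Of all tested genes, 13% (48 to 50) and 19.2% (19 to 23) were called higher against 2-mo WT, and 16.4% (48 to 50) against 24-mo WT. These fits have fewer mice, and against 2-mo WT they lost Ccnb2, Bub1, Aurkb, Plk1, Nusap1, Cdt1, E2f1, Mcm2, Mcm4, Tk1 and Pola1 (48 to 50) and Foxm1, Cdk2, E2f1, Mcm3, Mcm4 and Ccnd2 (19 to 23). Against 24-mo WT they lost Ccne1, Mcm2, Mcm4 and Pola1 (48 to 50). Between the WT ages, 0 S-phase genes were called by edgeR without a count filter. Without that filter E2f1, Mcm2 and Mcm4 were also lost in HGPS against 2-mo WT, and with thinned libraries so was Cdt1 beside those 3. The S-phase sum in HGPS was 1.26 times that of 2-mo WT, and 1.465 times by mean log2 CPM, which weighs the abundant Mcm6 and Pcna less.

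Leaving out 1 mouse at a time, 23 to 24 mitotic genes, 13 to 16 S-phase genes and 15 to 21 of the 46 at the thresholds of the study were called in HGPS against 2-mo WT. Between the WT ages the counts were 0 to 0, 0 to 1 and 0 to 0, and in HGPS against 24-mo WT 24 to 24, 14 to 16 and 24 to 28. With 1 mouse left out, 19.2% to 22.6% of all tested genes were called higher in HGPS against 2-mo WT. The share was 5.02% to 6.32% between the WT ages and 21.5% to 23.6% in HGPS against 24-mo WT. Calls lost in this way were those of Ccnb2, Foxm1, E2f1, Mcm2 and Mcm4 (HGPS against 2-mo WT), Cdk2 (between the ages) and Pola1 (HGPS against 24-mo WT, without any 1 of 8 mice). Calls gained were those of Ccnd2 (without 24-mo WT mouse 1) and E2f1 (without HGPS mouse 5 or 24-mo WT mouse 5) in HGPS against 24-mo WT, and of E2f2 between the ages (without 2-mo WT mouse 1). No called value changed sign under any alternative, while 68 values that were not called did, in 15 of 138 pairs of gene and comparison.

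Mice of the same number deviated together in few cases (2 of 18 pairs with a correlation over 0.1, 4 of 18 mice closest to their own number). With the replicate block, 2 S-phase genes were called between the WT ages rather than 1, E2f2 being added at a log2 fold change of 1.01, and the call of Mcm4 in HGPS against 2-mo WT was lost. The cause was not tested for any of these. Low counts limit Plk1, Birc5, Ndc80, Bub1 and Ccne1.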
